A study of Danio rerio with 15 samples.

Results

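The 2 genes described here, csf1ra (ENSDARG00000102986) and csf1rb (ENSDARG00000053624), are the zebrafish copies of the Csf1 receptor gene and the genes that are mutated in csf1rDM fish. They were taken by their Ensembl identifiers from the 35117 genes of a table of read counts. Both were among the 17640 genes with enough reads to be tested. The Csf1 receptor is a receptor tyrosine kinase on the surface of cells of the macrophage lineage. It is bound by the cytokines Csf1 and Il34 and supports the survival, proliferation and differentiation of these cells. In zebrafish, csf1ra is also known for its role in xanthophores, the yellow pigment cells of the skin.

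The RNA came from mpeg1+ cells, which were sorted for GFP from single whole juvenile fish, with 3 fish in each of 5 groups. Controls were wild-type fish and csf1rDM fish carried the alleles csf1raj4e1/j4e1 and csf1rbre01/re01, each at 33 dpf and at 1.5 mpf, whereas il34-/- fish, with the allele il34re03/re03, were sampled at 1.5 mpf. All groups carried the reporter tg(mpeg-GFP), whose promoter is active in macrophages and also in metaphocytes, macrophage-like cells of the epidermis. Titles of the older samples give 5 months, but their recorded stage is 1.5 mpf, which is used here. The counts hold no alleles, so the level of either receptor gene is not a check of the genotype, and transcripts of a mutated gene are counted like any others.

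Libraries held between 5488201 and 106374902 reads on genes, a 19.4-fold range. Levels are given as CPM (read counts relative to library size, scaled between libraries by the TMM method), and 3 reads, taken as the smallest level that a library can show, corresponded to between 0.0301 and 0.496 CPM. The deepest library, csf1rDM replicate 2 at 33 dpf, stood apart for csf1ra, and several results that rest on it are given with and without it. The reporter's own gene was present in every fish, as the most abundant of 3 genes with the symbol MPEG1 (ENSDARG00000055290) lay between 2357 and 8571 CPM. In these sorted cells, fewer cells of a type and less RNA per cell cannot be told apart.

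csf1ra was present in the mpeg1+ cells of all controls. At 33 dpf it was measured at 163, 183 and 177 CPM in replicates 1, 2 and 3, from 2120, 1108 and 1671 reads. At 1.5 mpf the values were 198, 115 and 206 CPM, from 1646, 1181 and 1639 reads. The younger fish lay close together and all 3 of them lay within the range of the older ones. The means were 175 ± 10.3 CPM (SD, n = 3) at 33 dpf and 173 ± 50.5 CPM (SD, n = 3) at 1.5 mpf.

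csf1rb was also present in all controls, with a wider spread. It was measured at 228, 113 and 252 CPM in the 3 controls at 33 dpf and at 243, 405 and 213 CPM at 1.5 mpf. The older control with the most csf1rb, replicate 2, was also the control with the least csf1ra, and the ages overlapped. The means were 197 ± 74.1 CPM (SD, n = 3) and 287 ± 103 CPM (SD, n = 3). Between 1.5 mpf and 33 dpf, the log2 fold change in controls was -0.01 for csf1ra (standard error 1.31, 95% interval -2.84 to 2.81) and 0.54 for csf1rb (standard error 0.70, 95% interval -0.98 to 2.06). Neither passed the threshold (adjusted p = 1 for both, edgeR, quasi-likelihood test, adjusted over all genes by Benjamini and Hochberg), and 1.17% of all genes were called in this comparison. These standard errors use a spread estimated over all 15 fish. In edgeR's fit of only these controls, the log2 fold change was -0.05 for csf1ra (standard error 0.26) and 0.51 for csf1rb (standard error 0.38).

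In csf1rDM fish, csf1ra reads were nearly absent from 5 of the 6 libraries. At 33 dpf, replicates 1, 2 and 3 had 0, 3382 and 1 csf1ra reads, or 0, 33.9 and 0.0770 CPM. At 1.5 mpf, the counts were 0, 1 and 0 reads, or 0, 0.0346 and 0 CPM. All 6 csf1rDM fish lay below all 6 controls. The single csf1rDM fish with more than 1 csf1ra read, replicate 2 at 33 dpf, was the one with the deepest library. Its level was 19.4% of the mean of the controls of its age, and 175 csf1ra reads were left when all libraries were thinned to the smallest total.

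csf1rb reads, in contrast, were present in all 6 csf1rDM fish. The 3 fish at 33 dpf had 445, 573 and 71 reads, or 44.9, 5.75 and 5.47 CPM, and those at 1.5 mpf had 336, 944 and 363 reads, or 45.4, 32.7 and 35.5 CPM. Every csf1rDM fish lay below every control of either age. Relative to the mean of the controls of the same age, csf1rb was at 22.7%, 2.91% and 2.77% at 33 dpf and at 15.8%, 11.4% and 12.3% at 1.5 mpf. The treatment of reads that match both genes is not given in the sources used here. The 5 fish with at most 1 csf1ra read had between 71 and 944 csf1rb reads.

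**Figure D1:**
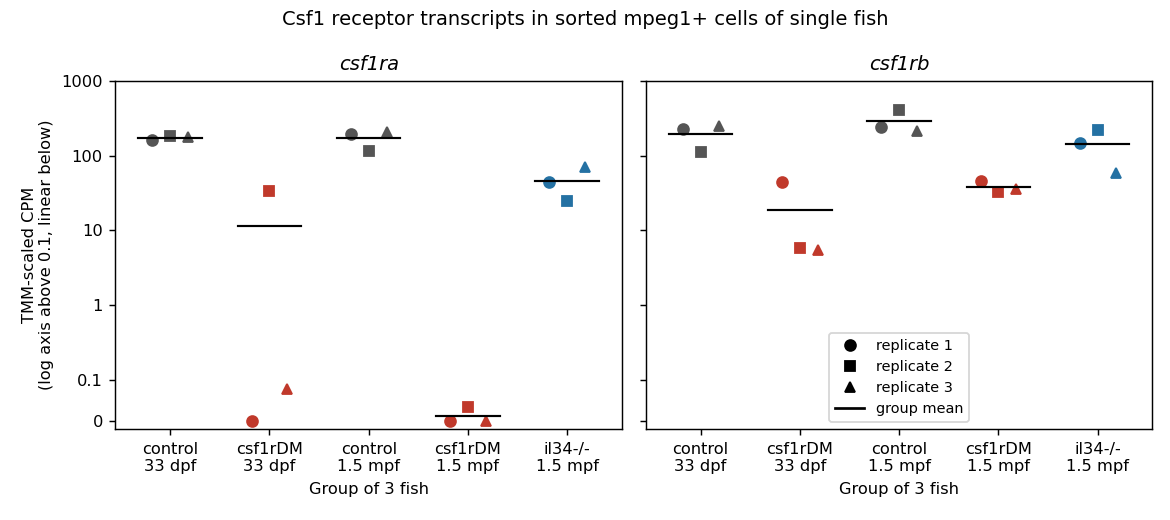
Level of csf1ra (left) and csf1rb (right) in each fish, in TMM-scaled CPM on an axis that is logarithmic above 0.1 and linear below, for the 5 groups of 3 fish, with the mean of each group as a line. csf1ra was at or near 0 in 5 of 6 csf1rDM fish and at 33.9 CPM in replicate 2 at 33 dpf, whereas csf1rb lay between 5.47 and 45.4 CPM in all 6.

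At 33 dpf, csf1rb fell in csf1rDM mpeg1+ cells, from 197 ± 74.1 to 18.7 ± 22.7 CPM (SD, n = 3 each). Its log2 fold change was -3.41 (standard error 0.77, adjusted p = 0.0310, edgeR), or 10.6-fold lower, with no overlap between the groups. Lower genes that passed the threshold made up 1.34% of all genes tested, and 12.4% were lower without overlap. The call was lost in edgeR's fit of only these 6 fish. It also rested on single fish, as without control replicate 1 or 3 or csf1rDM replicate 2 or 3 the adjusted p from edgeR was 0.0786, 0.0932, 0.0735 and 0.0860, with log2 fold changes between -3.35 and -3.00. csf1ra had a mean of 11.3 ± 19.6 CPM (SD, n = 3) in csf1rDM cells and did not pass the threshold at this age (log2 fold change -3.92, standard error 1.47, adjusted p = 0.198, edgeR), although DESeq2 called it. At this age DESeq2 called 12.1% of all genes in either direction. Without csf1rDM replicate 2, the log2 fold change of csf1ra was -11.74 with an adjusted p of 5.02e-05 (edgeR). The csf1rDM fish left at this age had 0 and 1 csf1ra reads, so this fitted value is not a measure of the size of the difference.

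At 1.5 mpf, csf1ra fell in csf1rDM cells to 1 read in the 3 libraries together, against 4466 reads in the 3 controls. Relative to the scaled library sizes this is a ratio of 7821, with a 95% counting interval from 1403 to 308998. The fitted log2 fold change of -12.62 (adjusted p = 0.0177 from edgeR, standard error 2.38) depends on the value added to counts near 0 and is not a measure of its size. Lower genes called at this age made up 1.2% of all genes. Without control replicate 3 or csf1rDM replicate 1, 2 or 3, csf1ra was above the threshold, with adjusted p-values of 0.0511, 0.0724, 0.121 and 0.0905 (edgeR). csf1rb had 287 ± 103 CPM in controls and 37.8 ± 6.69 CPM in csf1rDM cells (SD, n = 3 each). The log2 fold change of -2.93, or 7.60-fold, did not pass the threshold (standard error 0.76, adjusted p = 0.0842, edgeR). The groups did not overlap, as for 11.6% of all genes in this direction, and DESeq2 and edgeR's fit of only these 6 fish called it. In either direction, DESeq2 called 8.07% and that edgeR fit 1.21% of the genes tested.

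Over both ages, both receptor genes fell in csf1rDM cells. csf1ra changed from 174 ± 32.6 CPM in 6 controls to 5.68 ± 13.8 CPM in 6 csf1rDM fish (SD), with a fitted log2 fold change of -8.27 (adjusted p = 0.00329 from edgeR, standard error 1.40). csf1rb changed from 242 ± 94.3 to 28.3 ± 18.3 CPM (SD, n = 6 each), on the log2 scale a change of -3.17 (standard error 0.54, adjusted p = 0.00344, edgeR), or 8.99-fold lower. Lower genes called in this comparison were 3.17% of all genes, and 2.66% of genes were lower in all 6 csf1rDM fish than in all 6 controls, as both receptor genes were. Leaving out any of the 12 fish did not end either call, but without csf1rDM replicate 2 at 33 dpf the fitted log2 fold change of csf1ra was -12.10. Both fitted values of csf1ra rest on csf1rDM counts near 0 and are not measures of the size of the difference.

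The test of whether the difference between csf1rDM and control cells changed with age did not pass the threshold for either gene by edgeR, whereas DESeq2 called csf1ra in this test and for age in csf1rDM fish. DESeq2 called 5.68% and 5.9% of all genes in these comparisons, against 0.238% and 0.215% by edgeR. The interaction was -8.70 for csf1ra (standard error 2.62, adjusted p = 0.256, edgeR) and 0.48 for csf1rb (standard error 1.00, 95% interval -1.67 to 2.63, adjusted p = 1.0, edgeR), with 0.238% of all genes called. Within csf1rDM fish, csf1ra differed by -8.72 on the log2 scale between the ages (standard error 2.23, adjusted p = 0.185, edgeR) and csf1rb of 1.03 (standard error 0.71, adjusted p = 0.711, edgeR), with 0.215% of all genes called. Both csf1ra values came from csf1rDM replicate 2 at 33 dpf, since without it they were -0.72 for the interaction and -0.78 for age in csf1rDM fish.

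Loss of the ligand Il34 was compared with the same controls at 1.5 mpf, which both mutant comparisons at this age share. csf1ra was measured at 43.7, 24.6 and 71.0 CPM in the 3 il34-/- fish, from 334, 667 and 661 reads. All of them lay below all 3 controls and above all csf1rDM fish of this age, at 25.3%, 14.2% and 41.1% of the mean of the controls. The log2 fold change between the means of 173 ± 50.5 and 46.4 ± 23.3 CPM (SD, n = 3 each) was -1.90 (standard error 1.36, 95% interval -4.82 to 1.03) and did not pass the threshold (adjusted p = 0.679, edgeR). Lower genes called were 0.323% of all genes, and 10.6% did not overlap in this direction.

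csf1rb was measured at 149, 221 and 58.7 CPM in il34-/- fish, from 1139, 5988 and 546 reads. Replicate 2 lay above 1 of the 3 controls, so that the groups overlapped. The il34-/- fish with the most csf1rb had the least csf1ra, and the fish with the least csf1rb had the most csf1ra. The log2 fold change was -1.01 (standard error 0.71, 95% interval -2.54 to 0.52, adjusted p = 0.668, edgeR). Both intervals include no difference and a fall of several fold. In edgeR's fit of only these 6 fish, csf1ra had a log2 fold change of -1.86 with a standard error of 0.46 and an unadjusted p of 0.00529, which did not pass after adjustment either (adjusted p = 0.157). The adjusted p of csf1ra was 0.578 to 0.748 over the other settings (edgeR or DESeq2) and 0.685 to 0.855 with a fish left out (edgeR).

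In the direct comparison of the 2 mutants at 1.5 mpf, csf1ra was lower in csf1rDM than in il34-/- cells, with 1 against 1662 reads, a ratio of 1754 (95% counting interval 314 to 69305). The adjusted p was 0.0337 (edgeR, fitted log2 fold change -10.73, standard error 2.29), and lower genes called made up 0.952% of all genes. That fitted value also rests on 1 csf1rDM read and is not a measure of the size of the difference. Without any 1 of the 6 fish the adjusted p lay between 0.0560 and 0.165. csf1rb had 37.8 ± 6.69 CPM in csf1rDM and 143 ± 81.1 CPM in il34-/- cells (SD, n = 3 each) without overlap, and did not pass the threshold (log2 fold change -1.92, standard error 0.73, adjusted p = 0.242, edgeR). In this direction 11.5% of all genes did not overlap.

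**Figure D2:**
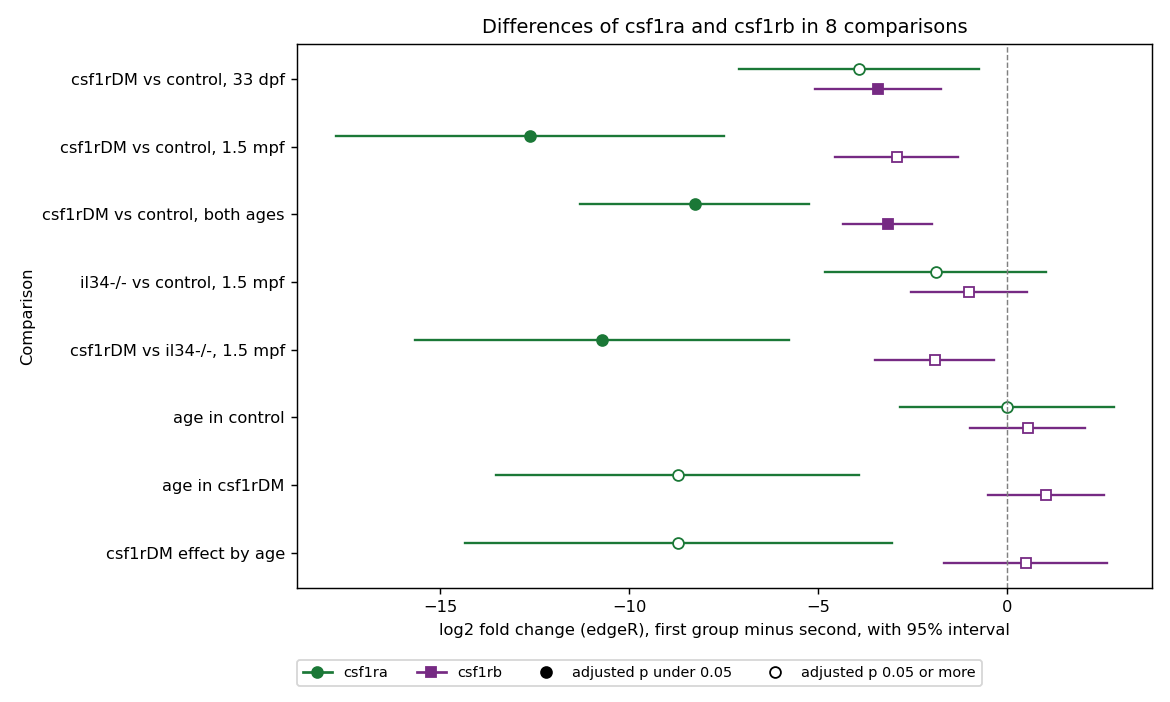
Log2 fold change of csf1ra (circles) and csf1rb (squares) with its 95% interval in 8 comparisons from edgeR's fit of all 15 fish, first group minus second, where filled symbols passed an adjusted p of 0.05 over all genes. Both genes were below 0 in the 3 comparisons of csf1rDM with control cells, from -2.93 to -12.62, and the intervals of both included 0 in il34-/- against control cells and for age in controls.

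Ordered by their means, the csf1ra levels were 175 CPM in controls at 33 dpf, 173 in controls at 1.5 mpf, 46.4 in il34-/- fish, 11.3 in csf1rDM fish at 33 dpf and 0.0115 in csf1rDM fish at 1.5 mpf. For csf1rb the order was 287 CPM in controls at 1.5 mpf, 197 in controls at 33 dpf, 143 in il34-/- fish, 37.8 in csf1rDM fish at 1.5 mpf and 18.7 in csf1rDM fish at 33 dpf. Among neighbours in the order of csf1ra, il34-/- fish lay apart from the controls of their age, whereas the controls of both ages, il34-/- and csf1rDM fish at 33 dpf, and csf1rDM fish of both ages overlapped. Among neighbours in the order of csf1rb, the range of il34-/- fish lay above that of csf1rDM fish at 1.5 mpf, and all other neighbours overlapped.

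The share of csf1rb among the reads of both receptor genes differed between genotypes without a test that passed correction. It was 58.2%, 38.1% and 58.7% in the controls at 33 dpf and 55.2%, 77.9% and 50.9% at 1.5 mpf. In csf1rDM fish it was 100%, 14.5% and 98.6% at 33 dpf and 100%, 99.9% and 100% at 1.5 mpf. Thus 5 of 6 csf1rDM fish lay above all controls, and the remaining one, replicate 2 at 33 dpf, lay below all of them. In il34-/- fish the share was 77.3%, 90.0% and 45.2%, with 1 fish above all controls and the other two within their range. Transcript lengths were not used here, so that this share does not give the relative number of molecules of the 2 genes.

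The log2 ratio of csf1rb to csf1ra reads, with 0.5 added to each count, was compared in 7 exact permutation tests. Over both ages, it was 6.43 higher in csf1rDM than in control fish (exact permutation of genotype within age, two-sided, p = 0.02, adjusted p = 0.14 over the 7 tests, where 400 arrangements allow a smallest p of 0.005), and it was higher than in any control in 5 of 6 csf1rDM fish. At 1.5 mpf it was 8.68 higher in csf1rDM than in control fish and 7.85 higher than in il34-/- fish (exact permutation tests, two-sided, p = 0.1 and adjusted p = 0.233 for both), and 0.1 is the smallest p that 3 fish against 3 allow. As csf1ra was nearly absent from these csf1rDM fish, the size of such differences depends on the value added to each count. With 1 added in place of 0.5 they were 7.87 and 7.04 at 1.5 mpf, and 5.79 over both ages. Differences of 4.18 at 33 dpf (p = 0.4, adjusted p = 0.56) and of 0.83 between il34-/- and control fish (p = 0.7, adjusted p = 0.7) did not pass either in exact permutation tests. With each fish left out in turn, these differences lay between 1.41 (without csf1rDM replicate 1) and 7.59 (without csf1rDM replicate 2) at 33 dpf, and between 0.02 (without il34-/- replicate 2) and 1.74 (without il34-/- replicate 3) for il34-/- against control fish. Without csf1rDM replicate 2 at 33 dpf, the difference over both ages was 8.13 (p = 0.005, adjusted p = 0.035, same exact permutation test). This fish was picked for its csf1ra reads, and without it every csf1rDM fish lay above every control. That p was therefore fixed by its removal and cannot serve as a test. With any other fish left out, the adjusted p over both ages lay between 0.14 and 0.233 in the same exact permutation test.

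**Figure D3:**
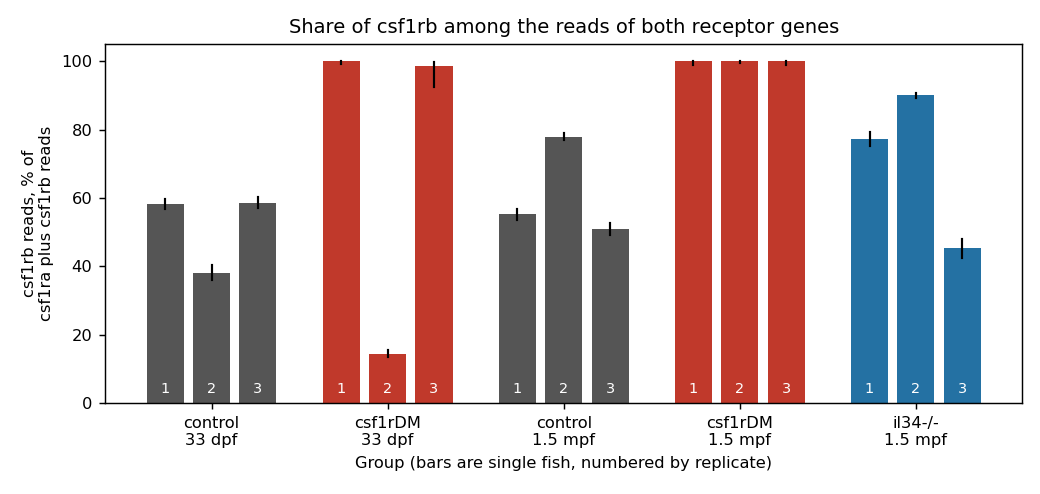
Share of csf1rb among the reads of csf1ra and csf1rb, in percent, with 1 bar per fish numbered by replicate and Wilson 95% intervals of the counts as lines. Of the csf1rDM fish, 5 lay at 98.6% or above and replicate 2 at 33 dpf lay at 14.5%, whereas the controls lay between 38.1% and 77.9%.

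Within a genotype, the levels of the 2 genes were not shown to be related. Over the 6 controls, Pearson's r of log2 CPM was -0.64 (exact permutation p = 0.156, adjusted p = 0.156 over 2 relations) and Spearman's rho was -0.6 (exact permutation p = 0.242, adjusted p = 0.242). Without the 2 controls farthest from the median of csf1ra, r was -0.09, so that the value rested on those fish. Over the 6 csf1rDM fish, r was -0.68 (exact permutation p = 0.0833, adjusted p = 0.156) and rho was -0.88 (exact permutation p = 0.05, adjusted p = 0.1). Here csf1ra was at 0 or 1 reads in 5 of 6 fish, and r was -0.73 without the 2 fish farthest from the median of csf1ra. The fish left then had 0, 0, 1 and 0 csf1ra reads. This value therefore rests on 1 read and cannot show whether a relation remains. The ages hold only 3 fish each, too few for a correlation within an age.

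The genes with the pattern most like that of each receptor over the 15 fish were different ones. For csf1ra these were PRDM1, which encodes a transcriptional repressor, si:dkey-187i8.2, smpd2a, which encodes a sphingomyelin phosphodiesterase, RGL1, which encodes a guanine nucleotide exchange factor for Ral, and zgc:174904, with Pearson's r of log2 CPM from 0.98 to 0.99. PRDM1, for example, had 84.0 ± 33.8 CPM in controls (SD, n = 6), 4.26 ± 10.4 CPM in csf1rDM fish (SD, n = 6) and 26.6 ± 9.14 CPM in il34-/- fish (SD, n = 3), and 25.5 CPM in csf1rDM replicate 2 at 33 dpf. For csf1rb they were zgc:153184, havcr1, which encodes a receptor of the TIM family, STING1, which encodes an adaptor of cytosolic DNA sensing, ENSDARG00000101017, which has no symbol in the table used, and AOC3, which encodes an amine oxidase, with r from 0.90 to 0.95. havcr1 had 265 ± 99.1 CPM in controls, 12.9 ± 11.6 CPM in csf1rDM fish and 131 ± 29.7 CPM in il34-/- fish. By the same measure csf1rb was the 964th gene in the order of likeness to csf1ra (r = 0.63) and csf1ra the 774th in the order of likeness to csf1rb. These correlations describe 15 fish of 3 genotypes, and the points share genotype and library. They were not computed without csf1rDM replicate 2 at 33 dpf.

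The ligands of the receptor were detected at low levels in the sorted cells. csf1a reads were present in 4 and csf1b reads in 7 of the 15 fish, and the highest level of either was 7.16 CPM. il34 was present in all 15 fish, between 0.231 and 31.4 CPM. In il34-/- fish it was measured at 6.02, 10.2 and 19.2 CPM, against 22.0, 19.9 and 11.4 CPM in the controls of that age, and these groups overlapped. None of the 3 ligand genes passed the threshold in any comparison of csf1rDM or il34-/- with control cells by edgeR, with csf1a at an unadjusted p under 0.05 at 33 dpf and over both ages, and DESeq2 called 0 of the 3 in each.

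Of the other class III receptor tyrosine kinases, the kinase family of the Csf1 receptor, flt3, a receptor of early blood and dendritic cell precursors, was present throughout. Its mean was 105.9 CPM in controls and 174 CPM in csf1rDM cells at 33 dpf, and 165 CPM in controls, 291 CPM in csf1rDM and 345 CPM in il34-/- cells at 1.5 mpf. None of the 3 tested members (flt3, PDGFRA and PDGFRB) was called by edgeR between csf1rDM and control cells over both ages, where flt3 had an unadjusted p under 0.05 and DESeq2 called it with a log2 fold change of 0.76. In this comparison DESeq2 called 15.8% of all genes in either direction. kitb, which was not tested, had no reads in 11 of 15 fish. Over both ages, PDGFRA and PDGFRB had log2 fold changes of -3.82 (standard error 1.94) and 4.81 (standard error 2.91). flt3 lay between them at 0.77, so the median of the 3 tested genes was its value alone, against -0.05 for all genes. At 33 dpf DESeq2 called PDGFRA as lower in csf1rDM cells, with a log2 fold change of -7.90, among 12.1% of all genes called in either direction.

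Among 10 tested genes for signalling from the Csf1 receptor and for myeloid regulation, 1 rose and 2 fell in csf1rDM cells over both ages by edgeR, where 2.7% of all genes rose and 3.17% fell. CEBPA and CEBPB, which encode transcription factors of myeloid cells, fell, with log2 fold changes of -3.78 (standard error 0.18, adjusted p = 1.83e-07, edgeR) and -2.49 (standard error 0.19, adjusted p = 1.52e-05, edgeR). tyrobp, which encodes an adaptor of immune receptors, rose from 1.38 to 60.05 CPM at 33 dpf and had 4.61 and 71.4 CPM at 1.5 mpf (log2 fold change over both ages 4.68, standard error 0.84, adjusted p = 0.00467, edgeR). grb2b, CBL, PIK3CD and INPP5D, which encode an adaptor, a ubiquitin ligase, a lipid kinase and a lipid phosphatase, were not called by edgeR, with log2 fold changes of -0.997, 0.26, 0.79 and 0.21. grb2b and PIK3CD had an unadjusted p under 0.05, and DESeq2, which called 15.8% of all genes in either direction over both ages, called grb2b. The median of the 10 genes was 0.19, against -0.05 for all genes. Without csf1rDM replicate 2 at 33 dpf, 1 gene rose and 3 fell, with grb2b called. The shares of all genes given here belong to the fit with that fish. In il34-/- cells CEBPB was the only called gene of the 10, and fell by 1.29 on the log2 scale (standard error 0.26, adjusted p = 0.0451, edgeR), where 0.323% of all genes fell.

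Of 7 tested macrophage markers, 4 fell and 1 rose in csf1rDM cells over both ages by edgeR, with a median log2 fold change of -4.22, against -0.05 for all genes. At 33 dpf 2 of them fell (3 without csf1rDM replicate 2, with c1qb added) and at 1.5 mpf 4, where 1.34% and 1.2% of all genes fell, against 3.17% over both ages. marco, a scavenger receptor, fell by 4.34 on the log2 scale, and the complement genes c1qa, c1qb and c1qc fell by 4.91, 4.22 and 5.03. LCP1, an actin-bundling protein of leukocytes, rose by 0.32, and the leukocyte genes ptprc and CORO1A were not called by edgeR (log2 fold changes -0.25 and -0.17), whereas DESeq2 called ptprc. Over both ages DESeq2 called 15.8% of all genes in either direction. Without csf1rDM replicate 2 at 33 dpf, 5 markers fell, ptprc among them, and none rose, LCP1 included. The shares of all genes given above belong to the fits with that fish. In il34-/- cells 0 of the 7 passed, by edgeR or DESeq2, and 0 had an unadjusted p under 0.05. Their summed level lay between 5323 and 6379 CPM in controls and between 3483 and 4872 CPM in csf1rDM fish at 33 dpf. At 1.5 mpf it lay between 6415 and 8093 CPM in controls, 4161 and 4476 CPM in csf1rDM fish and 5691 and 6528 CPM in il34-/- fish.

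Several epithelial genes among the markers of other cells were higher in csf1rDM cells. Of 3 tested metaphocyte markers, the adhesion genes cdh1 and epcam rose over both ages, by 3.29 and 2.25 on the log2 scale (adjusted p = 7.21e-05 and 0.00243, edgeR), whereas the co-receptor gene cd4-1 fell by 2.17 (adjusted p = 0.000143, edgeR). Of all genes, 2.7% rose and 3.17% fell over both ages. Without csf1rDM replicate 2 at 33 dpf, epcam was not called at that age. The summed level of the 3 lay between 155 and 180 CPM in controls and between 651 and 1151 CPM in csf1rDM fish at 33 dpf, and between 303 and 474 CPM in controls, 897 and 1164 CPM in csf1rDM fish and 141 and 259 CPM in il34-/- fish at 1.5 mpf. That of 4 keratinocyte markers lay between 491 and 898 CPM in controls and between 1343 and 1797 CPM in csf1rDM fish at 33 dpf. At 1.5 mpf it lay between 528 and 1045 CPM in controls and 1049 and 1331 CPM in csf1rDM fish. Of the keratin genes, edgeR called krt4 over both ages and krt91 at 33 dpf, where 3.05% of all genes were called in either direction. At 1.5 mpf 0 of the 4 were called, and krt91 had a log2 fold change of -0.20. krt5 and cyt1 were not called between csf1rDM and control cells. Some other markers were lower in csf1rDM cells. hbaa1, which encodes a globin chain of erythrocytes, fell by 2.93 on the log2 scale over both ages (adjusted p = 0.0126, edgeR). SLC7A7, an amino acid transporter used as a marker of microglia, fell by 1.21 (adjusted p = 0.00472, edgeR). The log2 fold change of SLC7A7 was -2.29 at 1.5 mpf but -0.14 at 33 dpf. The microglia markers apoeb and P2RY12 were not called by edgeR, with -0.42 and -1.03 over both ages. The part of these shifts in the levels of the receptor genes was not tested. As csf1ra is also expressed in xanthophores, their markers were examined. aox5 and XDH, which act in pteridine metabolism and mark these cells, had no reads in 12 of 15 fish each, and the summed level of 3 xanthophore markers was at most 54.7 CPM in any fish. gch2, the 1 of the 3 with enough reads to be tested, was not called in any comparison with controls by edgeR or DESeq2, nor had it an unadjusted p under 0.05.

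In csf1rDM replicate 2 at 33 dpf, the fish with csf1ra reads, marco, c1qa, c1qb and c1qc were also nearer to the controls than in the other csf1rDM fish. marco was at 24.5% of the mean of the controls of its age, against 0 to 9.89% in the other 5 csf1rDM fish. c1qa, c1qb and c1qc were at 9.69%, 30.3% and 11.5%, against 0.464% to 4.05% in the other 5 fish. csf1rb did not follow, as it was at 2.91% of the controls there. The scavenger receptor gene stab1 stayed at 0.0703 CPM, against a mean of 175 CPM in controls. LCP1 was at 129%, within the 101% to 143% of the other 5 csf1rDM fish. In il34-/- fish marco was at 21.1% to 28.9% and the C1q genes at 36.5% to 58.4% of the controls. The gene ptprc was between 79.9% and 102% in all mutant fish.

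**Figure D4:**
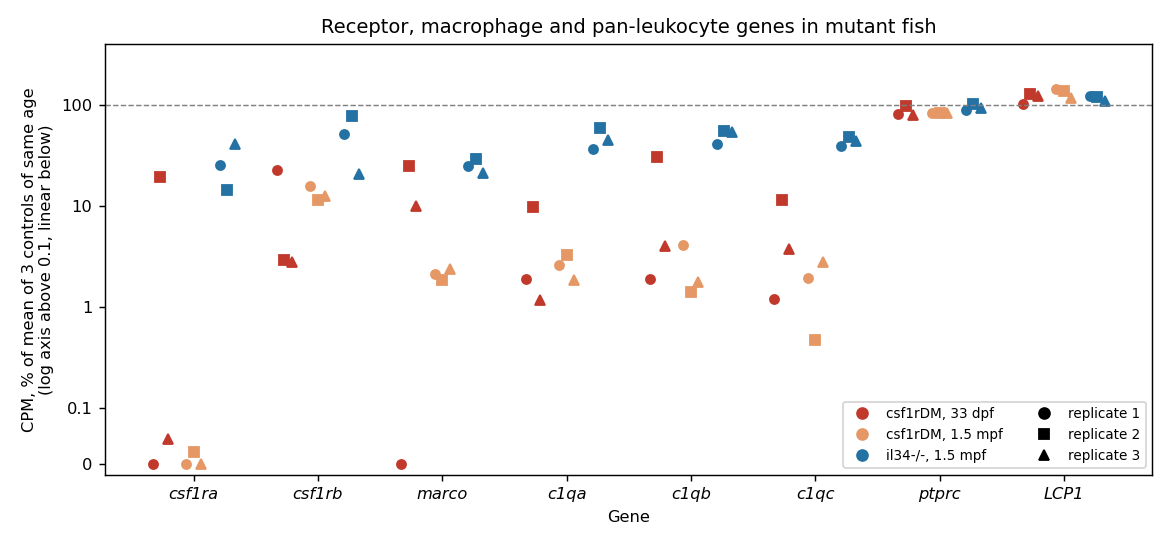
Level of csf1ra, csf1rb and 6 macrophage or leukocyte genes in each csf1rDM and il34-/- fish, in percent of the mean of the 3 controls of the same age, on an axis that is logarithmic above 0.1 and linear below, with the controls' mean as a dashed line. csf1rDM replicate 2 at 33 dpf (square) lay at 19.4% for csf1ra and 24.5% for marco but at 2.91% for csf1rb, while ptprc and LCP1 lay between 79.9% and 143% in all mutant fish.

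The levels of the neighbours of both receptor genes were also examined. By the order of genes in the RefSeq annotation of a newer assembly, csf1ra lies between hmgxb3 and pdgfrb, and csf1rb between pdlim4 and sra1. In csf1rDM replicate 2 at 33 dpf, hmgxb3 was at 32.3 CPM, against 6.26 to 14.7 CPM in the controls of that age. The next gene beyond it, slc35a4, was at 49.2 CPM, against 13.1 to 27.3 CPM. At 1.5 mpf, however, slc35a4 reached 47.1 CPM in controls, 51.3 CPM in csf1rDM fish and 43.3 CPM in il34-/- fish. The highest values of hmgxb3 in these groups were 0.377, 4.46 and 11.8 CPM. pdgfrb had no reads in csf1rDM replicate 2 at 33 dpf, as in all 3 controls of that age. Around csf1rb, pdlim4 lay between 0 and 32.6 CPM and sra1 between 1.32 and 26.6 CPM over all 15 fish, and in the csf1rDM fish sra1 overlapped with the controls at both ages. The next gene beyond pdlim4, dkc1, was at 32.4 to 113 CPM in csf1rDM fish at 33 dpf, against 144 to 261 CPM in controls. At this age 12.4% of all genes were lower without overlap. At 1.5 mpf dkc1 was at 48.8 to 94.2 CPM in controls and overlapped in csf1rDM fish, at 64.6 to 76.6 CPM. In il34-/- fish it was higher, at 351 to 383 CPM.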

How the data were processed

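RNA-sequencing of mpeg1+ cells sorted from 15 single fish was analysed. The deposited table holds raw counts, made by the authors, with 1 column per library and no normalization. The cDNA was amplified for low input and sequenced as paired reads of 75 bp. The submitters' processing notes name CASAVA 1.8, cutadapt, STAR 2.5.4b, HTSeq 0.11.0, Cufflinks 2.2.1 and edgeR, with the genome build GRCz10. Their roles, the annotation release and the treatment of reads that match several genes are not given in the sources used here. Symbols matched 27000 of the 35117 Ensembl identifiers, and list genes were matched by symbol without regard to case (49 of 64 matched, each to 1 identifier). mpeg1.1, mpeg1.2, mfap4 and spi1b were among those not matched, and 1 further list gene is not reported here.

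These counts were filtered (filterByExpr), scaled by TMM and modelled with edgeR 4.0.16 in R 4.3.3, where the 15 fish entered 1 fit with a term for each group and robust dispersions (common dispersion 1.57). Comparisons used glmQLFTest with Benjamini-Hochberg adjustment over 17640 genes at 0.05. Single values were compared by exact permutation in scipy 1.17.1. Likeness of genes was Pearson's correlation of log2 CPM with a prior count of 2, and for each receptor the 5 most alike genes, the list genes called between mutant and control cells and up to 4 others per list were named. The fitting was tested on simulated data. Alternatives were DESeq2 1.42.0, RLE, upper-quartile or library-size scaling, other filters, non-robust fits, only the groups compared, thinning to the lowest depth, a replicate block and leaving out each fish of the groups compared. Counting intervals and limits cover counting error only, as amplified reads are not independent molecules. The 3 fish of a group are single animals, so the p-values measure the spread between fish. In edgeR's main fit this spread was estimated for each gene over all 15 fish, csf1rDM replicate 2 at 33 dpf included. Without that fish, the standard error of csf1ra over both ages was 0.62, against 1.40 with it. The 2 genes and the lists were chosen with earlier results of these data known. Genome coordinates, sequences and transcript lengths were not used here.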

Additional observations from a re-analysis of the deposited data

Results flagged for a closer look

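Groups of 3 fish are too small to examine for single outlying fish, so the 6 fish of each genotype were pooled over both ages, for the level of both genes and their ratio. csf1rDM replicate 2 at 33 dpf stood far from the other 5 csf1rDM fish for csf1ra, at 33.9 CPM, with a gap of 0.998 of the whole range to the nearest fish, above the limit of 0.625 for 6 values. It also stood apart for the log2 ratio of csf1rb to csf1ra reads, at -2.56, with a gap of 0.658 of the range. This ratio contains the same csf1ra count, so that both describe 1 departure. For csf1rb no csf1rDM fish and no control was as far from the others. A rate of about 1 in 20 groups passing this limit by chance holds only for values from a single normal distribution. Here both ages were pooled, csf1ra was nearly absent from 5 csf1rDM fish and several groups of values were examined, so that rate does not apply.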

How the results depend on the processing

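Of 347 alternative values for the 2 genes, their ratio and their correlation, 319 kept their direction and their side of the threshold. The cause of the other changes was not tested, except that fits without a fish hold fewer fish. Both calls over both ages held under every alternative.

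With DESeq2 in place of edgeR, csf1ra was called at 33 dpf (-3.99), in csf1rDM fish between ages (-9.22) and for the effect by age (-9.21), and csf1rb at 1.5 mpf (-2.94, adjusted p = 0.000864 against 0.000864 to 0.0976 over all settings). DESeq2 called between 5.68% and 12.1% of all genes in these comparisons. With only the groups compared, csf1rb was not called at 33 dpf (-3.40, adjusted p = 0.136 from edgeR against 4.51e-05 to 0.136 over all settings) and was called at 1.5 mpf (-2.95), and csf1ra was filtered out for age in csf1rDM fish. With library size only, the correlation of csf1ra and csf1rb was -0.71 in controls and -0.69 in csf1rDM fish, both with an adjusted exact permutation p of 0.0389. In csf1rDM fish csf1ra was nearly absent outside replicate 2 at 33 dpf, so this value rests on that fish. By library size its csf1rb was at 5.39 CPM, just below the 5.45 CPM of replicate 3, and with TMM just above it.

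The numbers of the replicates name different fish. Over all genes tested, 0 of 30 same-numbered pairs had deviations from their group means that correlated above 0.1 (from -0.03 to 0.08). Such correlations cannot exclude an effect shared by replicate number in some genes, which was not tested. csf1b, for example, was at 1.85 to 6.15 CPM in replicate 1 of every group and at 0 to 2.97 CPM in the other fish. With a replicate block, csf1ra was not called between csf1rDM and il34-/- cells (-11.46, adjusted p = 0.0588 from edgeR) and its change with age in controls turned from -0.01 to 0.12. The block changed no other call of the 2 genes.

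With each fish of the groups compared left out in turn, log2 fold changes lay between -11.74 and -3.32 for csf1ra and -5.13 and -3.00 for csf1rb in csf1rDM against control cells at 33 dpf, between -14.51 and -12.30 and -3.06 and -2.55 at 1.5 mpf, and between -12.10 and -7.96 and -4.01 and -2.94 over both ages. They lay between -2.28 and -1.55 and -1.42 and -0.58 for il34-/- against control, and between -12.67 and -10.37 and -2.37 and -1.47 for csf1rDM against il34-/- cells. The values of csf1ra that involve csf1rDM cells rest on counts near 0 and are not measures of size. For age in controls csf1ra lay between -0.24 and 0.14, changing sign without control replicate 2 at 33 dpf (0.02) or at 1.5 mpf (0.14). The ratio over both ages lay between 5.04 and 8.13.

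Library-size scaling moved the median of all genes by over 0.1, from 0.0 to -0.18 at 33 dpf, from -0.12 to -0.01 for il34-/- against control, from 0.05 to -0.17 for age in controls and from -0.04 to 0.17 for the effect by age. Of the genes called at 33 dpf, 344 of 553 were then lower, against 236 of 538 with TMM. DESeq2 called 2781 genes over both ages, against 1035. Of the list genes, without csf1rDM replicate 2 at 33 dpf the metaphocyte markers that rose at that age were 1 in place of 2.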

Other observations

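In csf1rDM replicate 2 at 33 dpf, csf1ra was not the only gene that was near 0 in the other 5 csf1rDM fish and present here. Of 19 genes with at least 10 CPM in all 6 controls and at most 1 CPM in the other 5 csf1rDM fish, 7 had at least 10 CPM in this fish (36.8%). These were csf1ra, PRDM1, LTB4R, atp1a3a, smpd2a, RGL1 and mical3b, at 14.8% to 59.2% of the mean of the controls. PRDM1, smpd2a and RGL1 were also named above as most like csf1ra, but that order used this same fish. LTB4R encodes a leukotriene receptor and was at 23.9 CPM. Others stayed near 0 in it, among them stab1, which encodes a scavenger receptor, at 0.0703 CPM against a mean of 175 in controls, and tlr5b, a Toll-like receptor of flagellin, at 0.0703 CPM against 43.3. The same count in each of the other csf1rDM fish gave 1 of 10, 3 of 11, 0 of 10, 1 of 16 and 1 of 11 genes. With limits of 5 and 2 CPM it was 15 of 39 genes in this fish and between 3 and 6 of 26 to 32 genes in the others. The limits and the genes were chosen after the values were seen, and as the genes were chosen for being near 0 in the other fish, no test was made.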
